A study of Mus musculus with 6 samples.

Results

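The hormone-producing cells of the colon epithelium were followed through 10 genes, namely glucagon (Gcg), peptide YY (Pyy), insulin-like peptide 5 (Insl5), neurotensin (Nts), tryptophan hydroxylase 1 (Tph1), tachykinin 1 (Tac1), somatostatin (Sst), cholecystokinin (Cck), chromogranin A (Chga) and chromogranin B (Chgb). They were taken by gene symbol from the 24346 entries listed for each library, and all 10 were found. RNA was sequenced from primary epithelial cells of the distal, middle and proximal colon. The mice were wild-type C57BL/6J, an inbred laboratory strain, and had no treatment. Each region had 1 female and 1 male library, so n = 2 per region and 6 libraries in all. The age of the mice, the number of mice behind a library and any sharing of mice between regions are not stated in the labels. The p-values therefore reflect only how much these 6 libraries vary, and part of that variation may be technical.

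Enteroendocrine cells are scattered single cells of the gut epithelium that sense the gut content and release hormones. L cells process the Gcg product into the glucagon-like peptides, which raise insulin secretion and support the epithelium, and they also make Pyy, which slows gut transit and reduces appetite. In the colon L cells also make Insl5. Enterochromaffin cells make serotonin, with Tph1 as the rate-limiting enzyme, and D cells make somatostatin.

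Expression is given as FPKM, the number of fragments scaled to transcript length and library size, which allows levels of different genes to be set side by side. Depth was estimated at 7.83 to 9.94 M fragments per library, with 11170 to 11473 entries at or above 1 FPKM in each. The epithelial markers Epcam and Krt8 lay between 743 and 873 FPKM and between 3318 and 4008 FPKM over the 6 libraries. Krt20, another of the 8 epithelial markers, was less even. It had 247 and 388 FPKM in the distal, 355 and 803 FPKM in the middle and 851 and 694 FPKM in the proximal female and male libraries. In the fits described below none of the 8 was called between distal and proximal colon, with 5 fitted higher and 3 lower in distal colon. The 13 markers of enteric neurons, another cell type that can make Tac1 and Sst, summed to 1.46 and 1.49 FPKM in the distal, 1.16 and 2.11 FPKM in the middle and 1.08 and 1.26 FPKM in the proximal female and male libraries, and the neuronal genes Prph and Hand2 were at 0 in all 6. The 10 leukocyte markers summed to 4.67 and 4.07 FPKM in the distal, 12.5 and 5.57 FPKM in the middle and 13.9 and 38.0 FPKM in the proximal female and male libraries. The male proximal library had the highest leukocyte sum, and it was also the library with the highest Gcg, Nts, Tph1, Sst, Cck, Chga and Chgb. What part the leukocyte RNA has in those values was not tested. A lower value in bulk epithelium can come from fewer enteroendocrine cells or from less RNA per cell, and these cannot be told apart here.

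The promoters of 4 members are shown because their letters and their regional patterns can be set side by side. Gcg and Insl5 are hormones of L cells that share an E-box, and in the values below they differ in opposite directions between distal and proximal colon. Chgb and Sst share a cyclic AMP response element. Both were fitted lower in distal than in proximal colon, but only Chgb was called, and a difference between the 2 genes was not tested. Each sequence is the 250 bases before the RefSeq start on the gene's own strand (GRCm38.p6), with the motif in capitals. They lie at chr2:62483654-62483903 (Gcg, minus strand), chr4:103026729-103026978 (Insl5, minus strand), chr2:132781392-132781641 (Chgb, plus strand) and chr16:23890845-23891094 (Sst, minus strand). By the gene positions given below, which come from GENCODE, the Chgb window lies wholly inside the gene. The Insl5 and Sst windows lie partly inside their genes, and the Gcg window lies outside.
Gcg: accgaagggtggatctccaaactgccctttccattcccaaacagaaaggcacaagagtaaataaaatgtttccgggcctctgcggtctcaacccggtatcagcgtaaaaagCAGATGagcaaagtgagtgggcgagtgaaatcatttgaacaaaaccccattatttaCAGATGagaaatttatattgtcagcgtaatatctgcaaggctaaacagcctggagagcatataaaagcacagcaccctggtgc
Insl5: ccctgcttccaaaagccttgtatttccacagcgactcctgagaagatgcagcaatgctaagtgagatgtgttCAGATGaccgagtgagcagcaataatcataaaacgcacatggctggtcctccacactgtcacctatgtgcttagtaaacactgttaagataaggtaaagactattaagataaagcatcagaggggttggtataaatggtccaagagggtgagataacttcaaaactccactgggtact
Chgb: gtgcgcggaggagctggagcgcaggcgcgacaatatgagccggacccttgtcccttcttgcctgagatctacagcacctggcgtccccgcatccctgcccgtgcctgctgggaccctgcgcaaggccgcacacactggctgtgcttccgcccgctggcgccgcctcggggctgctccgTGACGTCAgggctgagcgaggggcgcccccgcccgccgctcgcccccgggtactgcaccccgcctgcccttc
Sst: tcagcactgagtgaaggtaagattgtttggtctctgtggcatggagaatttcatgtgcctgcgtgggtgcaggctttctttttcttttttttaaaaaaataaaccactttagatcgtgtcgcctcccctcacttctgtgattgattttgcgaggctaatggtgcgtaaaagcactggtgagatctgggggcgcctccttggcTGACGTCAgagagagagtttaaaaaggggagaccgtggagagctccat

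The E-box searched was CAGATG, a form that NeuroD factors are known to bind, and it was sought on both strands. In Gcg it begins 139 and 83 bases before the start, and in Insl5 178 bases before it. Over all 32851 promoter windows 14.4% hold it. The 10 members have 13 windows, some genes having more than 1, and 4 of these hold it, in Gcg, Insl5, Tac1 and Cck. The cyclic AMP response element TGACGTCA, which reads the same on both strands, begins 72 bases before the start of Chgb and 48 bases before that of Sst. It is in 1.55% of all windows, in 2 of the 13 member windows and in no other member. The third motif, TTTATNG, a core that Cdx and posterior Hox factors are known to bind, is in 9.81% of all windows and in none of the 13 member windows. No motif overlaps another in the printed sequences, and a match describes letters in the window and not binding.

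Among the 10 genes, Pyy was the most abundant transcript with a mean of 88.9 FPKM over the 6 libraries. Insl5 followed at 52.0 FPKM, Gcg at 46.0 FPKM, Chgb at 27.5 FPKM, Chga at 27.1 FPKM and Sst at 10.9 FPKM. Tph1, Tac1, Nts and Cck had means of 3.75, 3.53, 2.65 and 1.53 FPKM. Neighbours in this order overlapped in their range over the libraries, so the order describes means only.

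**Figure D1:**
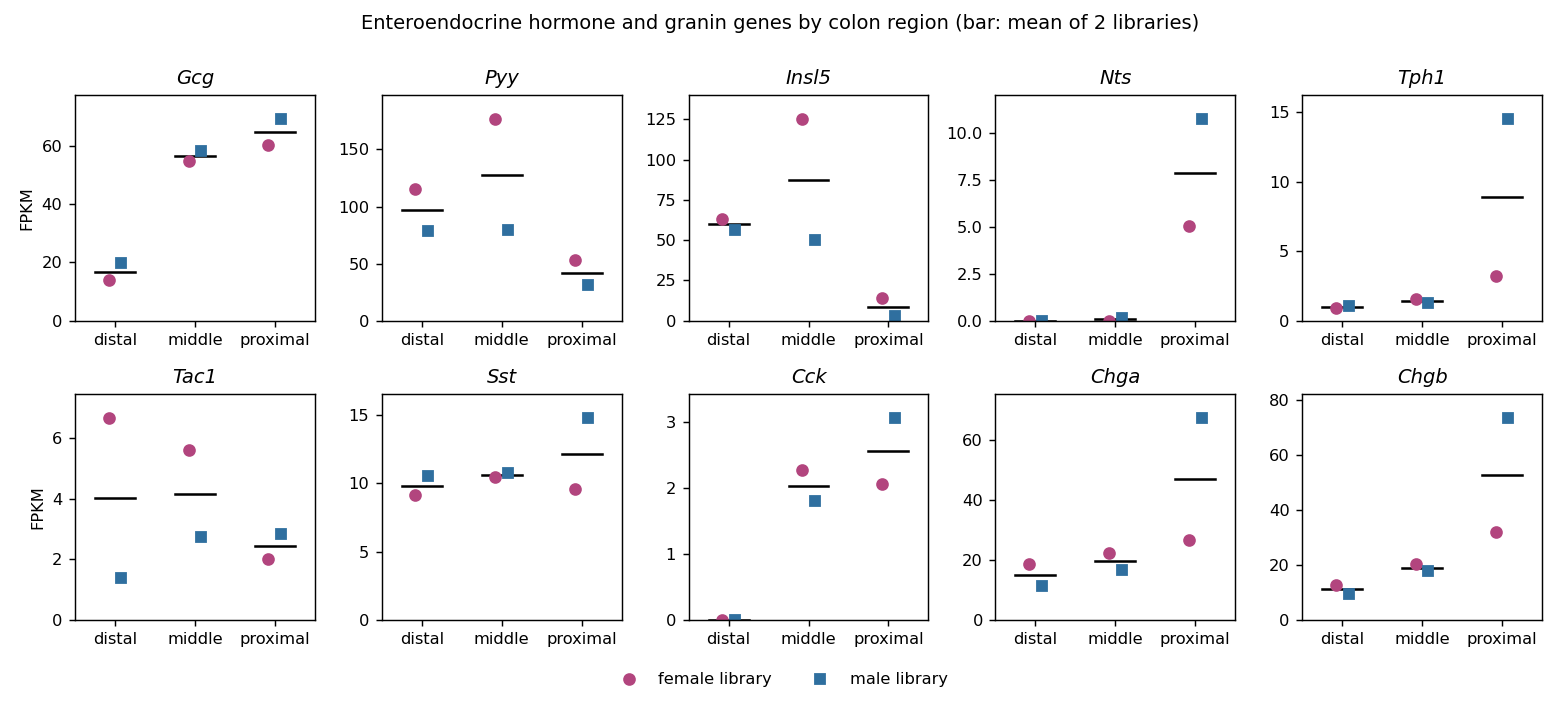
FPKM of the 10 genes (vertical axes, linear, each from 0) in the distal, middle and proximal colon; points are libraries (circle female, square male) and bars are means of 2 libraries. Pyy and Insl5 are lowest in proximal colon, Gcg is lowest in distal colon, and Nts is near 0 outside proximal colon.

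The hormones of L cells did not share 1 gradient. Gcg (chromosome 2, 62474530 to 62483650 in mm10) fell in distal colon relative to proximal and middle colon, whereas Pyy (chromosome 11, 102106676 to 102107832) and Insl5 (chromosome 4, 103017872 to 103026842) rose in distal relative to proximal colon. Gcg had 13.8 FPKM in the female and 19.7 FPKM in the male distal library. It had 54.6 and 58.3 FPKM in the middle libraries and 60.2 and 69.1 FPKM in the proximal libraries. All distal values lay below all others, and the middle values lay just below the proximal ones. The 7 tuft cell markers found in the files had their lowest sums in distal colon, with 1.23 and 2.01 FPKM in the distal, 8.03 and 11.1 FPKM in the middle and 7.72 and 9.85 FPKM in the proximal female and male libraries. Of the 4 that passed the filter, 2 were called lower in distal than in proximal colon (Trpm5, Ltc4s) and none higher, against 7.64% called lower over all genes. Trpm5 and Ltc4s were below 1 FPKM in the distal libraries and passed the filter only through middle and proximal ones, so in distal colon they could only be lower. The part of the tuft cell markers in the Gcg values was not tested. The Gcg means were 16.8 ± 4.18 FPKM in distal, 56.5 ± 2.56 FPKM in middle and 64.7 ± 6.24 FPKM in proximal colon (SD, n = 2 each). On the log2(FPKM + 1) scale Gcg differed by -1.90 between distal and proximal colon (SE 0.13, limma adjusted p = 0.0023), and 13 of 13 alternative settings kept this call. The difference from middle colon was -1.71 (SE 0.13, limma adjusted p = 0.018). That call was lost when any 1 of the 4 distal and middle libraries was left out, with limma adjusted p of 0.0727 to 0.0929, and without a filter on low values (0.104). Between middle and proximal colon the difference of -0.19 did not pass the threshold (SE 0.13, limma adjusted p = 0.52).

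Pyy had 115 FPKM in the female and 78.3 FPKM in the male distal library. In middle colon the female library had 176 FPKM and the male library 79.1 FPKM, and the proximal libraries had 53.1 and 31.1 FPKM. The proximal values were the lowest, while the distal and middle ranges overlapped. Means were 96.8 ± 26.1 FPKM in distal, 127.8 ± 68.8 FPKM in middle and 42.1 ± 15.5 FPKM in proximal colon (SD, n = 2 each). The log2 difference was 1.20 between distal and proximal colon (SE 0.16, limma adjusted p = 0.0098) and 1.52 between middle and proximal colon (SE 0.16, limma adjusted p = 0.025). Against middle colon distal colon differed by -0.31, which did not pass the threshold (SE 0.16, limma adjusted p = 0.51). The call between distal and proximal colon was lost without the male distal library (limma adjusted p = 0.0771) and without a term for sex (limma adjusted p = 0.139). The call between middle and proximal colon was lost without the female middle library (limma adjusted p = 0.18), without a term for sex (0.18) and without a filter on low values (0.0881).

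Insl5 is a peptide of the relaxin family. The distal female and male libraries had 63.4 and 56.6 FPKM, the middle ones 125 and 49.97 FPKM and the proximal ones 14.1 and 2.84 FPKM. Proximal colon stood below the other regions in every library. The middle female library was the highest and the middle male library lay below both distal libraries. The 7 goblet cell markers had sums of 8251 and 7102 FPKM in the distal, 14530 and 10018 FPKM in the middle and 5712 and 4641 FPKM in the proximal female and male libraries. The sum was highest in the female middle library and lowest in proximal colon, but the genes went both ways. Between distal and proximal colon 4 of the 7 were called higher (Tff3, Fcgbp, Clca1, Zg16), 2 were called lower (Muc2 with a log2 difference of -2.31 and Spdef with -1.97) and Agr2 was not called. Over all genes tested, 6.47% were called higher and 7.64% lower. The part of the goblet cell markers in the Insl5 and Pyy values was not tested. Means were 60.0 ± 4.85 FPKM in distal, 87.5 ± 53.1 FPKM in middle and 8.48 ± 7.98 FPKM in proximal colon (SD, n = 2 each). The log2 difference was 3.0 between distal and proximal colon (SE 0.40, limma adjusted p = 0.010), and 13 of 13 alternatives kept it. It was 3.39 between middle and proximal colon (SE 0.40, limma adjusted p = 0.028), a call lost without the female middle library (limma adjusted p = 0.21), without the male middle library (0.128), without a term for sex (0.108) and without a filter (0.0949). For distal against middle colon the Insl5 difference of -0.40 did not pass the threshold (SE 0.40, limma adjusted p = 0.76).

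Nts, a peptide that acts on gut motility, was confined to proximal colon apart from 1 library. The distal libraries and the female middle library listed it at 0, and the male middle library at 0.129 FPKM, which at the estimated depth is about 1.1 fragments. The proximal female and male libraries had 5.03 and 10.7 FPKM, about 47.1 and 89.3 fragments. Nts lies on chromosome 10 at 102481756 to 102490486. The log2(FPKM + 1) difference was -3.07 between distal and proximal colon (SE 0.29, limma adjusted p = 0.0042) and -2.98 between middle and proximal colon (SE 0.29, limma adjusted p = 0.024). With a pseudocount of 0.1 these differences were -6.22 and -5.62, so their size depends on the pseudocount and no fold is given. Nts passed the filter on low values only through its proximal libraries, so it had to differ between regions. The call between middle and proximal colon was lost without the female middle library (limma adjusted p = 0.188), without the male middle library (0.102) and without a filter (0.0881).

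Ratios within a library do not move with the scaling between libraries, and they show the different gradients directly. Gcg per Pyy was 0.120 and 0.252 in the distal female and male libraries, 0.310 and 0.736 in the middle ones and 1.14 and 2.22 in the proximal ones. The 3 regions did not overlap in this ratio, and within each region the male library had the higher value. Insl5 per Gcg was 4.59 and 2.87 in distal, 2.29 and 0.858 in middle and 0.234 and 0.0411 in proximal colon, again without overlap and here with the female library higher in each region. Insl5 per Pyy was 0.551 and 0.722 in distal, 0.709 and 0.631 in middle and 0.266 and 0.0914 in proximal colon, so these genes kept a similar ratio in distal and middle colon and a lower one in proximal colon.

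**Figure D2:**
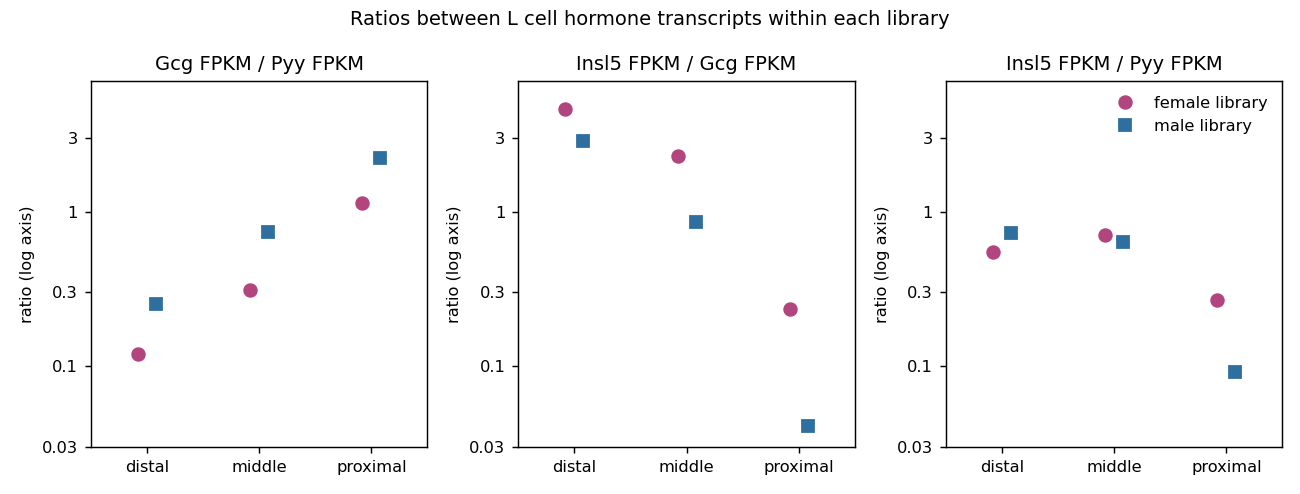
Ratios of FPKM between L cell hormones in each library (vertical axes, log scale, no unit); circles are female and squares male libraries. Gcg per Pyy is lowest in distal and highest in proximal colon, Insl5 per Gcg runs the other way, and Insl5 per Pyy is low in proximal colon only.

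Tph1, the enzyme of enterochromaffin cells, was low outside proximal colon. It (chromosome 7, 46644641 to 46672537) had 0.895 and 1.04 FPKM in the distal female and male libraries, 1.55 and 1.27 FPKM in the middle ones and 3.24 and 14.5 FPKM in the proximal ones. The 3 regions did not overlap, and the male proximal library stood far above the rest. The means were 0.965 ± 0.0996 FPKM in distal, 1.41 ± 0.196 FPKM in middle and 8.87 ± 7.96 FPKM in proximal colon (SD, n = 2 each). The difference of -2.05 between distal and proximal colon did not pass the threshold (SE 0.50, limma adjusted p = 0.052). Without the male proximal library it was -1.10 (limma adjusted p = 0.0435), without the female one -3.0 (limma adjusted p = 0.000926), and with a pseudocount of 0.1 it was -2.72 (limma adjusted p = 0.0409). Between middle and proximal colon the difference was -1.75 (SE 0.50, limma adjusted p = 0.15).

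Tac1 (chromosome 6, 7554879 to 7565834), the precursor of substance P and neurokinin A, showed no regional order that held in both sexes. It had 6.65 and 1.37 FPKM in the distal female and male libraries, 5.60 and 2.72 FPKM in the middle ones and 2.02 and 2.85 FPKM in the proximal ones. All regions overlapped, and the female library was higher in distal and middle colon and the male library in proximal colon. The difference between distal and proximal colon was 0.32 (SE 0.46, limma adjusted p = 0.70).

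Sst (chromosome 16, 23889573 to 23890958), which inhibits the release of other gut hormones, had the narrowest spread of the 10 genes relative to its level. It had 9.13 and 10.6 FPKM in the distal female and male libraries, 10.4 and 10.8 FPKM in the middle ones and 9.57 and 14.8 FPKM in the proximal ones. All regions overlapped. Its log2 difference between distal and proximal colon was -0.26 (SE 0.16, limma adjusted p = 0.35). These values rest on about 43.2 to 61.2 fragments per library.

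Cck (chromosome 9, 121489824 to 121495694), which in the small intestine drives gallbladder contraction and pancreatic secretion, was at 0 in each distal library. It had 2.28 and 1.80 FPKM in the middle female and male libraries and 2.06 and 3.06 FPKM in the proximal ones. Middle and proximal colon overlapped. The log2(FPKM + 1) difference was -1.82 between distal and proximal colon (SE 0.23, limma adjusted p = 0.0087), a call lost without the male distal library (limma adjusted p = 0.0736). For distal against middle colon it was -1.60, which did not pass the threshold (SE 0.23, limma adjusted p = 0.073). With a pseudocount of 0.1 these were -4.71 and -4.41, and the second passed (limma adjusted p = 0.0402). A level of 0 in distal colon gives no fold. Cck passed the filter on low values only through its middle and proximal libraries, so in distal colon it could only be lower.

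The granins Chga and Chgb are acidic proteins of the secretory granule, used as general markers of enteroendocrine cells. Chgb (chromosome 2, 132781278 to 132795079) had 12.7 and 9.49 FPKM in the distal female and male libraries, 20.2 and 17.6 FPKM in the middle ones and 31.9 and 73.2 FPKM in the proximal ones. Its 3 regions did not overlap, with distal colon lowest. Chga (chromosome 12, 102554969 to 102565028) had 18.6 and 11.2 FPKM in the distal, 22.4 and 16.5 FPKM in the middle and 26.6 and 67.1 FPKM in the proximal female and male libraries. For Chga the distal and middle ranges overlapped, and both lay below the proximal one. For both genes the male proximal library held more than 2 times the level of any other library.

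Chgb fell in distal relative to proximal colon (log2 difference -2.04, SE 0.37, limma adjusted p = 0.024), and Chga differed by -1.48 without passing the threshold (SE 0.47, limma adjusted p = 0.10). Without the male proximal library the Chgb difference was -1.31 (limma adjusted p = 0.00405) and the Chga difference -0.56 (limma adjusted p = 0.0715). Without the female proximal library they were -2.77 and -2.41 (limma adjusted p = 0.00032 and 0.000465). The Chgb call was lost without the male distal library (limma adjusted p = 0.148) and without a filter (0.065). Chgb per Chga was 0.683 and 0.848 in distal, 0.899 and 1.06 in middle and 1.20 and 1.09 in proximal colon, lowest in distal and highest in proximal colon with no overlap between regions.

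All 10 genes passed the filter of 1 FPKM in at least 2 libraries, but Nts passed only through its proximal libraries and is therefore left out of the counts that follow. Of the other 9 genes, 5 passed the threshold between distal and proximal colon, 2 of them higher in distal colon (Pyy, Insl5) and 3 lower (Gcg, Cck, Chgb). Cck is kept in these counts, but it was at 0 in each distal library. It passed the filter only through its middle and proximal libraries, so in distal colon it could only be lower. The counts and medians for distal colon include Cck, so part of their lean to lower values was fixed by the filter. Over the 11815 genes tested, 14.1% were called, 6.47% as higher and 7.64% as lower. At an unadjusted p under 0.05 limma gave 7 of the 9, against 29.2% of all genes. The median difference of the 9 was -1.48, against 0.0067 over all tested genes. Between distal and middle colon 1 of the 9 was called, Gcg, against 0.499% of all genes. All 9 fitted differences there were below 0, with a median of -0.39 against 0.0078. Between middle and proximal colon 2 of the 9 were called, Pyy and Insl5, both higher in middle colon, against 2.45% of all genes, with a median of -0.19 against 0.00028.

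**Figure D3:**
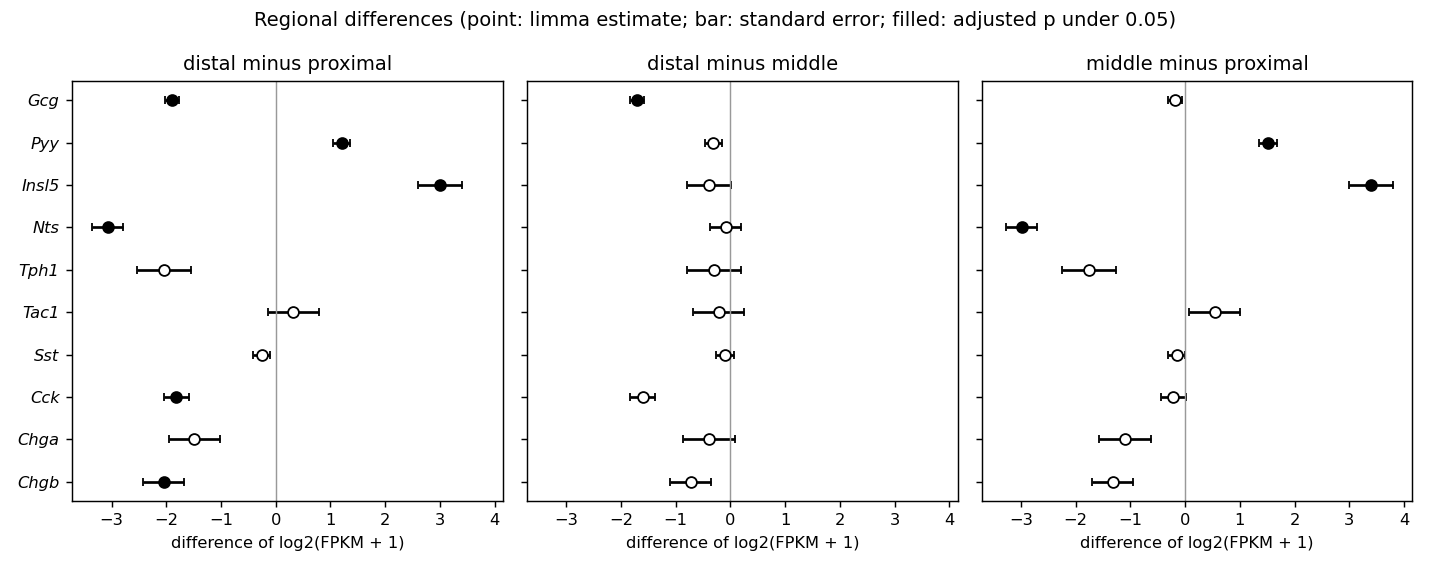
Regional differences of log2(FPKM + 1) for the 10 genes (horizontal axes) in 3 comparisons, with distal or middle colon first; points are limma estimates, bars are 1 standard error and filled points passed an adjusted p of 0.05. In distal minus proximal colon 2 genes are called higher and 4 lower, Nts among them.

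The make-up of the hormone transcripts differed along the colon, while their sum overlapped between regions. The 10 genes summed to 240.5 and 188 FPKM in the distal female and male libraries, 419 and 238 FPKM in the middle ones and 208 and 289 FPKM in the proximal ones. The female middle library had the highest sum and the male distal library the lowest. Pyy and Insl5 together took 74.3% and 71.6% of the sum in distal, 72.0% and 54.2% in middle and 32.3% and 11.7% in proximal colon. Gcg took 5.74% and 10.5% in distal, 13.1% and 24.5% in middle and 29.0% and 23.9% in proximal colon. Chga and Chgb together took 13.0% and 10.99% in distal, 10.2% and 14.3% in middle and 28.1% and 48.5% in proximal colon. The shares are bound to each other, since they add up to the whole in each library.

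**Figure D4:**
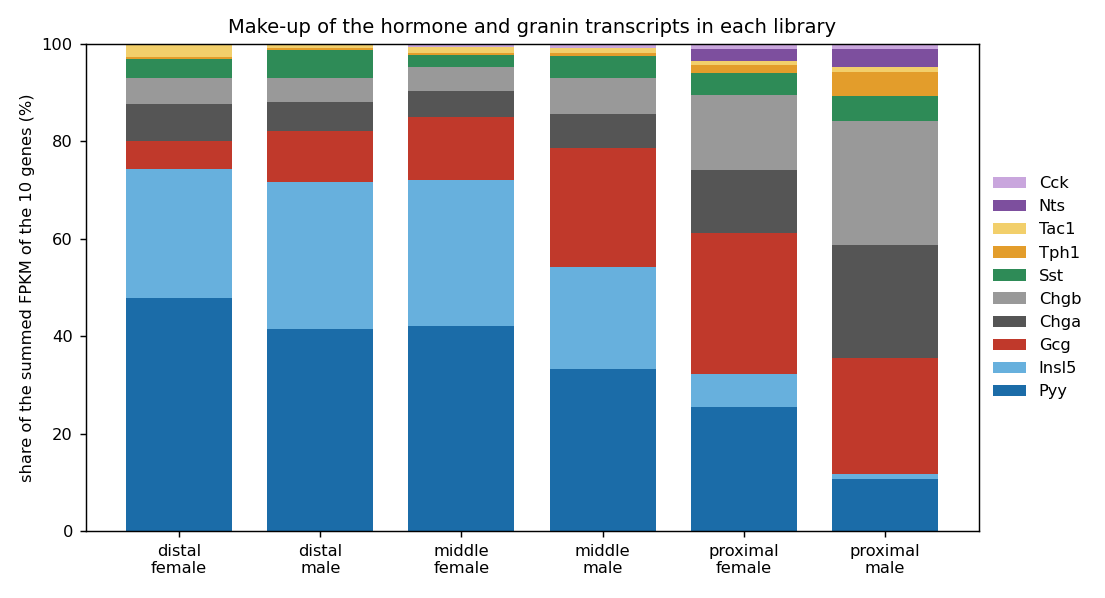
Share of each gene in the summed FPKM of the 10 genes (vertical axis, percent), 1 bar per library. Pyy and Insl5 fill most of the distal bars, and Gcg, Chga and Chgb most of the proximal bars.

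Between the sexes no member passed the threshold in limma, against 0.0423% of all genes. At an unadjusted p under 0.05 there were 2 of the 10 genes, against 10.6% of all genes. These were Pyy, with a female minus male difference of 0.82 (SE 0.13, limma adjusted p = 0.33), and Insl5, with 1.15 (SE 0.33, limma adjusted p = 0.42). For both genes the female library was higher in 3 of 3 regions. Each sex has 1 library per region, so a difference of the regional pattern between the sexes could not be fitted.

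Other gut peptide hormones were mostly near 0. Of the 20 listed, 4 passed the filter, and 8 were at 0 in all 6 libraries, among them Gip and Gast, hormones of the upper gut. Secretin (Sct), which stimulates bicarbonate secretion, had 2.57 and 2.01 FPKM in the distal female and male libraries, 5.16 and 5.99 FPKM in the middle ones and 13.1 and 59.2 FPKM in the proximal ones. It fell in distal relative to proximal colon (log2 difference -3.15, SE 0.54, limma adjusted p = 0.020), and its male proximal library was the highest, as for the granins. Pancreatic polypeptide (Ppy), which is related to Pyy and lies beside it in the genome, had 3.26 and 5.03 FPKM in the distal, 26.2 and 11.3 FPKM in the middle and 2.41 and 1.79 FPKM in the proximal female and male libraries. It was called higher in middle than in proximal colon (log2 difference 2.57, SE 0.37, limma adjusted p = 0.038) and did not pass between distal and proximal colon (0.71, SE 0.37, limma adjusted p = 0.28).

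Enteroendocrine transcription factors were also scarce, with 4 of 20 past the filter. Foxa2, a forkhead factor with roles in the secretory lineage, averaged 22.2 ± 3.8 FPKM in distal and 5.61 ± 1.18 FPKM in proximal colon (SD, n = 2 each). Its level rose relative to proximal colon (difference of 1.81, SE 0.19, limma adjusted p = 0.0056). It was the 1 called gene of the 4 tested, against 14.1% of all genes, while Foxa1 differed by -0.10 (SE 0.11, limma adjusted p = 0.63). Neurog3 and Neurod1, the factors that specify and mature enteroendocrine cells, averaged 1.23 and 0.716 FPKM over the 6 libraries. Those genes were named after their values were seen.

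Genes for granules and prohormone processing went both ways, with 11 of 24 past the filter, 1 called higher and 2 lower in distal colon and 8 not called (median 0.10, against 0.0067 over all genes). Over all genes tested, 6.47% were called higher and 7.64% lower. Pcsk1, the convertase that cuts the Gcg product into glucagon-like peptides, averaged 1.5 ± 0.646 FPKM in distal and 7.79 ± 0.332 FPKM in proximal colon (log2 difference -1.84, SE 0.22, limma adjusted p = 0.0078). Ptprn2, a granule membrane protein, averaged 3.87 ± 0.175 FPKM in distal and 15.9 ± 1.07 FPKM in proximal colon (-1.79, SE 0.17, limma adjusted p = 0.0047). It was also called lower in distal than in middle colon (-1.49, SE 0.17, limma adjusted p = 0.047). Pam, which amidates peptide hormones, was higher, with 55.2 ± 1.41 FPKM in distal and 20.4 ± 10.6 FPKM in proximal colon (1.49, SE 0.24, limma adjusted p = 0.017).

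Genes of serotonin handling gave 2 called higher and 0 lower in distal than in proximal colon, of 5 past the filter. Over all genes tested, 6.47% were called higher and 7.64% lower. Slc6a4, the transporter that takes serotonin back into epithelial cells, averaged 31.1 ± 5.13 FPKM in distal and 8.01 ± 1.90 FPKM in proximal colon (log2 difference 1.84, SE 0.22, limma adjusted p = 0.0078). Ddc, which makes serotonin from the product of Tph1, averaged 34.5 ± 1.96 FPKM in distal and 20.7 ± 0.155 FPKM in proximal colon (0.71, SE 0.12, limma adjusted p = 0.018). Maoa, the most abundant gene of the list, which degrades serotonin, differed by -0.47 without passing (SE 0.22, limma adjusted p = 0.23).

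Of the sensors of enteroendocrine cells, 4 of the 6 that passed the filter were called lower in distal than in proximal colon and none higher. Over all genes tested, 7.64% were called lower. The median of the 6 was -0.67, against 0.0067 over all genes, and 15 of the 21 listed did not pass the filter. Adra2a, an adrenergic receptor that restrains hormone release, had 1.17 and 4.59 FPKM in the distal, 8.04 and 27.2 FPKM in the middle and 33.0 and 54.1 FPKM in the proximal female and male libraries. Its differences were -3.63 between distal and proximal colon (SE 0.23, limma adjusted p = 0.0023), -2.19 between distal and middle colon (SE 0.23, limma adjusted p = 0.036) and -1.44 between middle and proximal colon (SE 0.23, limma adjusted p = 0.048). Ffar2, a receptor for short-chain fatty acids, had 0.193 and 1.16 FPKM in distal, 5.04 and 7.81 FPKM in middle and 4.16 and 3.20 FPKM in proximal colon. It differed by -1.54 between distal and proximal colon (SE 0.29, limma adjusted p = 0.026). Ffar4, a receptor for long-chain fatty acids, and Gucy2c, the guanylin receptor, also fell (log2 differences -0.83 and -0.52, SE 0.11 and 0.12, limma adjusted p = 0.010 and 0.049). Gucy2c and Ffar4 are also made by other epithelial cells. For the genes of this and the other lists, Foxa2, Pam, Ddc, Htr4 and Ace among them, which cells of the bulk epithelium carry the RNA was not tested.

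Of the hormone receptors and peptidases, 8 of 30 passed the filter, and 3 of these were called higher in distal than in proximal colon and none lower. Over all genes tested, 6.47% were called higher. The median of the 8 was 0.58, against 0.0067 over all genes. Gcgr, a glucagon receptor, Ntsr1 and Ntsr2, which are neurotensin receptors, and Tacr1, a substance P receptor, were among the 12 at 0 in all 6 libraries. Npy1r, a receptor of the peptide YY family, averaged 5.50 ± 0.854 FPKM in distal and 0.313 ± 0.0649 FPKM in proximal colon (log2 difference 2.30, SE 0.25, limma adjusted p = 0.0062). Its proximal female and male libraries had 0.359 and 0.267 FPKM, so Npy1r passed the filter only through distal and middle libraries, where it was higher. Mme, which was not called, had 0.203 and 0.113 FPKM there and passed only through the female distal and middle libraries. The median of the 8 includes both genes and the 3 called include Npy1r, so part of their lean to higher values was fixed by the filter. Htr4, a serotonin receptor, averaged 13.0 ± 1.21 FPKM in distal and 4.99 ± 2.5 FPKM in proximal colon (1.29, SE 0.25, limma adjusted p = 0.027). Ace, a peptidase, averaged 14.4 ± 3.22 FPKM in distal and 2.81 ± 0.403 FPKM in proximal colon (2.01, SE 0.13, limma adjusted p = 0.0023). The 2 most abundant genes of the list, Sort1 and Sstr1, did not pass (0.35 and -0.24, limma adjusted p = 0.084 and 0.50).

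**Figure D5:**
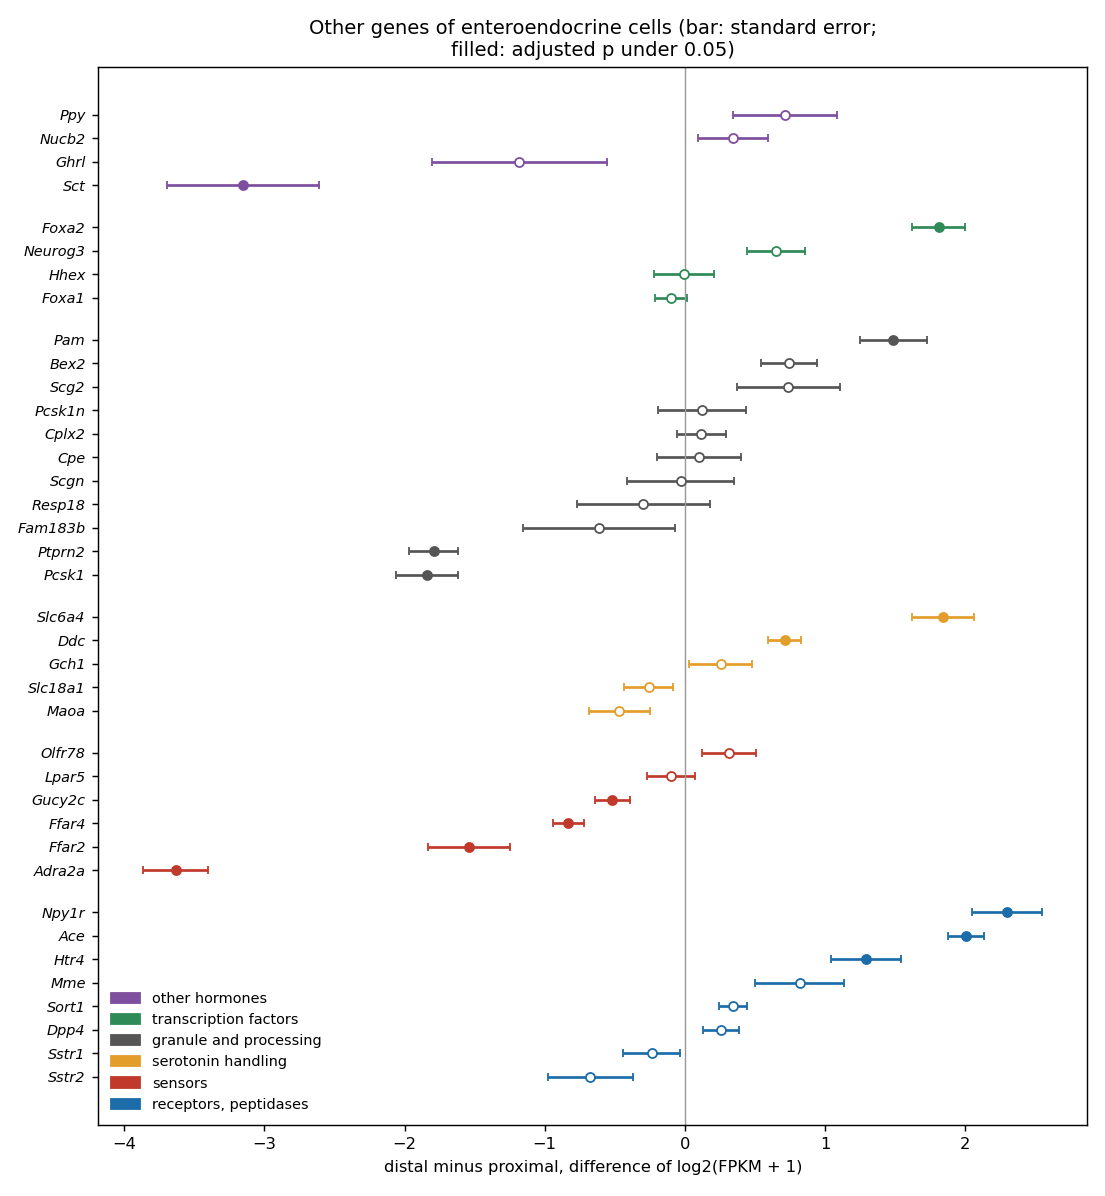
Distal minus proximal difference of log2(FPKM + 1) (horizontal axis) for genes of 6 other lists that passed the filter; points are limma estimates, bars are 1 standard error, colours mark lists and filled points passed an adjusted p of 0.05. Called sensors all lie below 0 and called receptors and peptidases all above 0.

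For each called member, the genes with the most similar pattern over the 6 libraries were those with the smallest root mean square difference of log2(FPKM + 1), each gene centred on its own mean. For Gcg, whose own root mean square deviation was 0.87, they were Cldn15 (0.16), Rasl11b (0.18) and 5330417C22Rik (0.18). For Pyy (0.78) they were Ccl20 (0.22), Gbp2 (0.26) and Bex4 (0.26), and for Insl5 (1.66) Spink1 (0.33), Ctse (0.37) and Pla2g2f (0.37). Nts (1.46) was closest to Cyp2c66 (0.22), Tbx3 (0.24) and Hoxb5 (0.25). Cck (0.82) was closest to Gcg itself (0.18), followed by Rasl11b (0.22) and Fabp5 (0.24), while Cck was not among the 3 genes closest to Gcg. Chgb (0.92) was closest to H2-Q2 (0.15), Gzmb (0.19) and Ppara (0.20), and Gzmb is a gene of cytotoxic lymphocytes. These are descriptions over 6 libraries and carry no test.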

How the data were processed

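The authors deposited FPKM per gene for each of 6 libraries, made from total RNA with a stranded mRNA kit per the labels' protocols. The submitters' processing notes name Cuffdiff 2.2.1, TopHat2 2.1.1, SAMtools 0.1.18, Bowtie2 2.2.8 and the mm10 build. Settings, annotation and strand use: not given in the sources used here. No count model was run on FPKM, and a 0 can be a failed estimate. Depth was estimated from the spacing of FPKM values under 0.2, for transcripts over 1500 bases and an assumed fragment length of 200 bases.

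Values were analysed as log2(FPKM + 1), which understates differences of low genes. The 11815 of 24346 entries with at least 1 FPKM in at least 2 libraries were fitted in limma 3.58.1 (R 4.3.3) with terms for region and sex and a variance trend, leaving 2 residual and 3.49 prior degrees of freedom. P-values were adjusted by Benjamini-Hochberg over all 11815 genes, at a threshold of 0.05. In every region replicate 1 is male and replicate 2 female, so the sex term is also a block by replicate number. The numbers follow deposition order, and no label says that libraries of one sex share mice.

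Members and lists were chosen with earlier results of these data known. All 10 members were described. From each other list the text names up to 6 genes called between distal and proximal colon, by size, and the 2 of highest mean. The 3 most similar genes of each called member are named too. As alternatives, each library was left out in turn, the pseudocount was set to 0.1, the filter was removed or raised to 5 FPKM, values were scaled by quantiles or by median ratios, and the variance trend or the sex term (the region term between sexes) was dropped. Gene positions come from GENCODE M21, where no other gene overlaps a member, and promoters from RefSeq. Figures were drawn with matplotlib 3.10.9.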

Additional observations from a re-analysis of the deposited data

Results flagged for a closer look

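In 6 of 30 combinations of a member and a regional comparison, the female and the male libraries moved in opposite directions. With 1 library per sex and region, the difference between the sexes was not tested. Values are differences of log2(FPKM + 1), and the female minus male gap is given for each. Tac1 differed by 1.34 in females and -0.70 in males between distal and proximal colon, a gap of 2.04. Against middle colon, distal Tac1 differed by 0.21 in females and -0.65 in males, a gap of 0.86. For middle against proximal colon its values were 1.13 in females and -0.05 in males, a gap of 1.18. Insl5 differed by -0.97 in females and 0.18 in males between distal and middle colon, a gap of -1.14. Sst differed by 0.11 in females and -0.42 in males between middle and proximal colon, a gap of 0.54. Cck differed by 0.10 in females and -0.54 in males between middle and proximal colon, a gap of 0.64. None of these regional differences had passed the threshold over both sexes.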

How the results depend on the processing

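Over the 10 members' regional differences and the sex differences of Pyy and Insl5, 364 values under an alternative setting kept direction and side of the threshold, 20 lost the call, 12 gained it and 14 reversed. None of those that reversed had been called. In fits without 1 library, the region left with a lone library is assumed to vary like the others. Genes called between distal and proximal colon were 340 to 1583 with 1 library left out (1668 with all), and members called were 3 to 8 (6 with all). For distal against middle colon 59 genes were called, 2 without a filter, 29 without a variance trend, 17 without a sex term and 0 to 406 with 1 library left out. The members called there were 1, against 2 with a pseudocount of 0.1, 0 without a filter and 0 to 3 with 1 library left out. Between middle and proximal colon 289 genes were called, 4 without a filter, 187 without a variance trend, 24 without a sex term and 0 to 806 with 1 library left out. Of the members 3 were called, against 0 without a filter, 1 without a sex term and 0 to 6 with 1 library left out. The cause of these changes was not tested. Nts is counted among the members here.

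Reversals came only from leaving out a library. The log2 ranges over left-out libraries were -0.48 to 1.13 for Tac1 between distal and proximal colon. For distal against middle colon they were -1.14 to 0.34 for Insl5, -0.37 to 0.20 for Nts, -0.87 to 0.28 for Tph1, -0.94 to 0.51 for Tac1, -0.95 to 0.18 for Chga and -0.27 to 0.07 for Sst. Between middle and proximal colon they were -0.38 to 0.08 for Sst, -0.27 to 1.34 for Tac1 and -0.48 to 0.04 for Cck. Under quantile normalization the distal means of Nts and Cck were 0.0137 FPKM in place of 0, and that of Tph1 was 1.08 FPKM in place of 0.965. With a minimum of 5 FPKM, Tph1 and Cck were not tested. The sex term is also the block by replicate number, so the fits without it are the unblocked ones. Depth limits low values, as 0.129 FPKM of Nts is about 1.1 fragments.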
